A study of Callithrix jacchus with 4 samples.

Results

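The 9 genes described here make dopamine, move it and break it down. TH and DDC carry out the synthesis steps, GCH1 and PTS make the cofactor that TH needs, SLC6A3 and SLC18A2 are the transporters of the cell surface and the synaptic vesicle, and ALDH1A1, MAOA and MAOB degrade the amine. They were taken by name, as the array features whose only gene symbol is one of these 9. This gave 12 features for 9 genes, out of 29033 features with 1 symbol for 18014 genes. TH, GCH1 and MAOB had 2 features each and the other genes 1.

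The genes were measured in the substantia nigra pars compacta, the midbrain nucleus whose dopamine neurons degenerate in Parkinson's disease, of 5 male common marmosets aged 3 years. In the group treated with MPTP, 4 animals received 2.5 mg/kg of this neurotoxin once, into a vein, and 1 animal each was killed 2 h, 6 h, 1 day and 14 days later, and 1 further animal received the vehicle. A strip of the nucleus of 1 side was cut out by laser from 2 slides per sample, so the RNA came from all cells of the strip and not from sorted neurons. Each of the 4 arrays carried RNA of 1 MPTP animal in the Cy5 channel and of the same vehicle animal in the Cy3 channel.

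Dopamine neurons hydroxylate tyrosine to L-DOPA with tyrosine hydroxylase (TH), which needs tetrahydrobiopterin, and remove the carboxyl group with aromatic amino acid decarboxylase (DDC). GTP cyclohydrolase (GCH1) starts the synthesis of tetrahydrobiopterin and 6-pyruvoyltetrahydropterin synthase (PTS) carries out its next step. The vesicular transporter (SLC18A2) loads dopamine into vesicles, the plasma membrane transporter (SLC6A3) takes it back up, monoamine oxidases (MAOA and MAOB) oxidise it, and ALDH1A1 oxidises the aldehyde that results. The same proteins handle the toxin: MAOB, mostly of glia, turns MPTP into its active metabolite MPP+, SLC6A3 carries MPP+ into dopamine neurons, and SLC18A2 shuts it away in vesicles.

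Values are given as log2 of the MPTP over vehicle ratio after the median of each array was set to 0, so that 1 stands for 2-fold higher and −1 for 2-fold lower. The ratio shows no level of any transcript, and genes cannot be ranked by abundance from it. Scale and direction were read from the form of the deposited values and from the dyes in the labels, and with the opposite direction every sign would turn. With 1 animal per time and 1 vehicle animal there is no replicate of any group, so no difference was tested and no p-value is given. A difference of at least 2-fold is used as a rule of size only. Where a gene had 2 features, the SD over them is given. It covers the measurement on the array and not the spread between animals. Over the 7411 genes with 2 or more features, the median SD between features of a gene was 0.45 after 2 h, 0.34 after 6 h, 0.27 after 1 day and 0.29 after 14 days. The arrays were not equally wide, with the SD of all gene ratios at 0.71 at 2 h and 0.47 at 14 days.

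PTS, the cofactor enzyme, was lower than in the vehicle animal on every array, and the gene values of ALDH1A1 and TH lay above 0 on every array. For ALDH1A1 the value at 14 days was 0.087, and 1 of the 2 TH features lay at −0.086 at 1 day. Of the 8 genes with a readable ratio, none but PTS and ALDH1A1 was 2-fold from vehicle at any time. Each count of 9 here and below includes SLC6A3, which is listed at 0 and could not be called. At 2 h, 1 of 9 genes was at least 2-fold lower, against 7.22% of all genes, and 0 were at least 2-fold higher, against 5.47%. At 6 h, 1 of 9 was higher, against 3.37%, and 0 were lower, against 3.89%. At 1 day, 1 was higher, against 2.27%, and 1 lower, against 1.67%. At 14 days, 0 were higher, against 2.16%, and 1 lower, against 2.12%. All the lower calls were PTS and both higher calls ALDH1A1. The genes went both ways, from −2.51 to 0.90 at 2 h and from −1.27 to 1.23 at 1 day. The median over the 8 genes with a readable ratio was 0.0053, 0.20, 0.16 and 0.067 from 2 h to 14 days, beside 0.027, 0.029, 0.015 and 0.0095 over all genes. With SLC6A3, which is listed at 0, the medians over 9 genes were 0.0032, 0.18, 0.050 and 0.048.

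**Figure D1:**
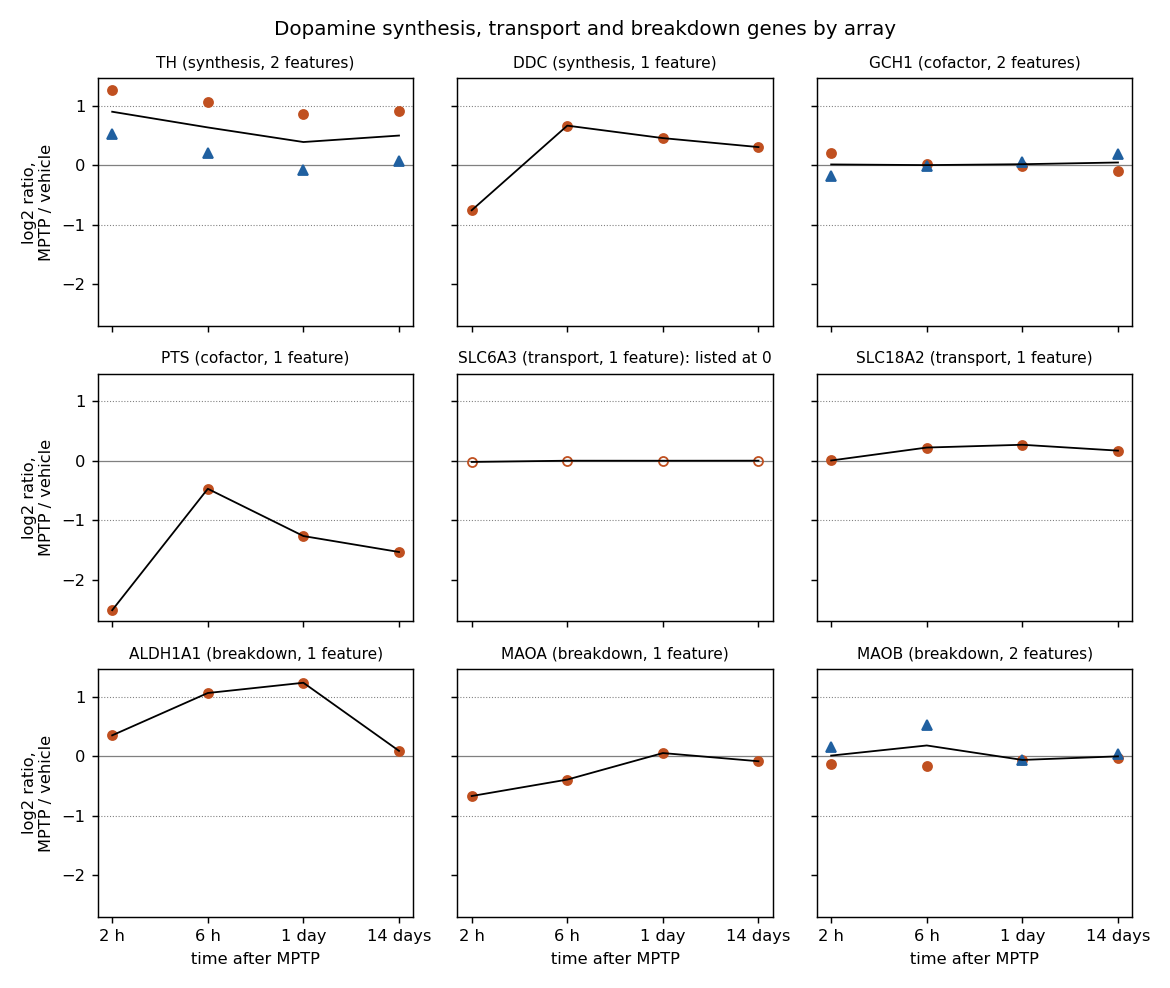
Log2 ratio of MPTP over vehicle (vertical axis) at each time after MPTP (horizontal axis, 1 animal and 1 array per time) for the 9 genes. Circles and triangles are single array features, the line joins the gene medians, and dotted lines mark 2-fold. PTS lies below 0 throughout with its lowest value, −2.51, at 2 h, ALDH1A1 passes 1 at 6 h and 1 day, and the open circles of SLC6A3 are a feature listed at 0.

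TH, the rate-limiting enzyme of the pathway, was read by 2 features that lay apart on every array. The first lay at 1.27 after 2 h, 1.07 after 6 h, 0.87 after 1 day and 0.92 after 14 days. The second lay at 0.53, 0.20, −0.086 and 0.080 at the same times. The first was thus past 2-fold at 2 h and 6 h, and the second at no time. The gap between them was 0.74 to 0.96, and their SD was above the median SD between features of a gene on every array and below the 90th percentile of that SD. Both moved alike from time to time. From 2 h to 6 h the first was lower by 0.20 and the second by 0.33, from 6 h to 1 day they were lower by 0.20 and 0.29, and from 1 day to 14 days they were higher by 0.051 and 0.17. With the arrays scaled to 1 spread, the steps of the gene median to 6 h and to 1 day shrank from −0.26 and −0.25 to −0.015 and −0.098. The gene medians were 0.90 ± 0.52 (SD, 2 features), 0.64 ± 0.62, 0.39 ± 0.68 and 0.50 ± 0.59, each SD being close to or above the value itself except at 2 h. At 2 h, 1219 of 18014 genes lay higher than TH, and at 1 day 2314 did.

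DDC, the decarboxylase that makes dopamine from L-DOPA, lay below the vehicle level at 2 h and above it later. Its 1 feature lay at −0.76 after 2 h, 0.67 after 6 h, 0.46 after 1 day and 0.31 after 14 days. At 2 h TH and DDC therefore stood on opposite sides of 0, and at the later times both lay above it. The step of DDC from 2 h to 6 h was 1.42, a 2.68-fold difference between those MPTP animals in which the shared vehicle sample cancels.

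PTS had the lowest ratio of the 9 genes on every array. Its 1 feature lay at −2.51 after 2 h, −0.47 after 6 h, −1.27 after 1 day and −1.53 after 14 days. This is 5.71-fold lower than vehicle after 2 h, 1.39-fold after 6 h, 2.41-fold after 1 day and 2.90-fold after 14 days. Only 39 of 18014 genes lay lower at 2 h, 148 at 1 day and 91 at 14 days, but 2552 at 6 h. PTS was 1 of 140 genes (0.777%) that were at least 2-fold lower on 3 or more arrays. In RNA from a whole strip of tissue, fewer cells that carry a transcript and less transcript per cell cannot be told apart. A low value on all 4 arrays also cannot be told apart from a high value in the vehicle sample that the arrays share.

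GCH1, the enzyme before PTS in the same pathway, lay near the vehicle level on every array. Its gene medians were 0.015 ± 0.28 (SD, 2 features) after 2 h, 0.0039 ± 0.014 after 6 h, 0.019 ± 0.052 after 1 day and 0.048 ± 0.20 after 14 days. The spread of its medians over time, 0.044, was among the smallest on the arrays, and 99.2% of all genes had a range at least as large. Its features did not move together, however. The first went from 0.21 at 2 h to −0.094 at 14 days and the second from −0.18 to 0.19, so the steady median averages opposite courses.

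The transporters gave little to read. SLC6A3, the dopamine transporter by which the toxin enters the neurons, was read by 1 feature whose deposited value is exactly 0 on each array, as for 103 genes in all (0.572%). No ratio can be read from it, and 8 of the 9 genes had a readable one. SLC18A2, the vesicular transporter, lay at 0.0032 after 2 h, 0.22 after 6 h, 0.27 after 1 day and 0.17 after 14 days. Only the value at 1 day reached the median SD between features of a gene on its array.

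ALDH1A1, an aldehyde dehydrogenase that marks ventral-tier dopamine neurons in mammals, was higher in the middle of the time course. Its 1 feature lay at 0.35 after 2 h, 1.06 after 6 h, 1.23 after 1 day and 0.087 after 14 days. It was thus 2.08-fold above vehicle at 6 h and 2.35-fold at 1 day, and at 2 h and 14 days it was within 1.27-fold. At 1 day only 223 of 18014 genes lay higher. ALDH1A1 was 1 of 458 genes (2.54%) at least 2-fold higher on 2 or more arrays. From 1 day to 14 days it was lower by 1.14, a 2.21-fold difference between those animals.

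The monoamine oxidases lay apart at the early times and close together later. MAOA lay at −0.67 after 2 h, −0.40 after 6 h, 0.050 after 1 day and −0.088 after 14 days, from 1 feature. It was 1.59-fold lower than vehicle at 2 h and 1.06-fold lower at 14 days. MAOB, the enzyme that activates MPTP, lay at 0.0074 ± 0.19 (SD, 2 features), 0.18 ± 0.49, −0.065 ± 0.0061 and −0.0054 ± 0.049. At 6 h its features stood apart, at −0.17 and 0.52, and at 1 day they lay within 0.0086 of each other. MAOA and MAOB are neighbours in the marmoset gene order.

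**Figure D2:**
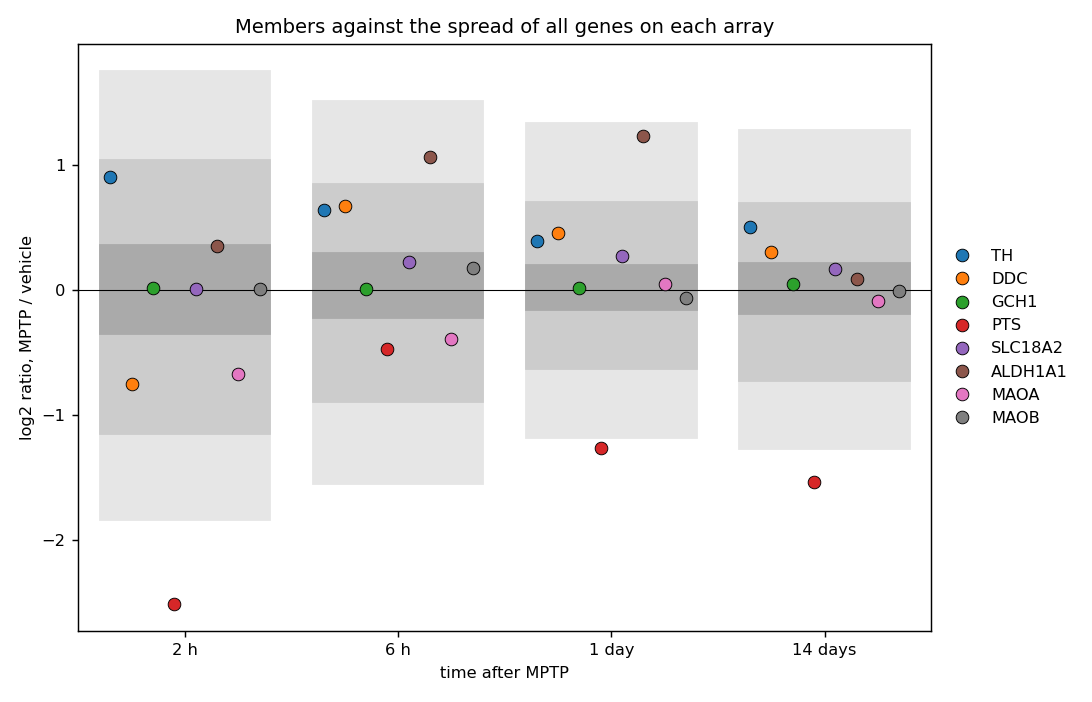
The 8 genes with a readable ratio (points, log2 ratio of MPTP over vehicle on the vertical axis) at each time, over grey bands that hold the 25th to 75th, 5th to 95th and 1st to 99th percentile of 18014 genes on that array, from dark to light. PTS lies below the lightest band at 2 h, 1 day and 14 days, and ALDH1A1 lies above the 95th percentile at 6 h and 1 day. The bands are wider at 2 h than at 14 days.

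Between consecutive times the vehicle sample cancels, and each value sets 1 MPTP animal against another. From 2 h to 6 h, 2 of 9 genes were at least 2-fold higher at the later time, against 4.90% of all genes. These were PTS, by 2.04 (4.11-fold), and DDC, by 1.42. ALDH1A1 was higher by 0.71 over the same step, and TH lower by 0.26. None of the 9 was 2-fold lower, against 3.98% of all genes. From 6 h to 1 day 0 of 9 passed 2-fold, against 3.59% higher and 2.69% lower over all genes. The largest differences were PTS, lower by 0.79, and MAOA, higher by 0.45. With the arrays scaled to 1 spread, the PTS step was −1.23, so that 1 gene passed. From 1 day to 14 days ALDH1A1 alone passed, in the direction of 2-fold lower, against 2.53% of all genes. No gene of the 9 was 2-fold higher there, against 2.26%, and the other genes with a readable ratio differed by at most 0.27 in size.

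Over the whole course the 9 genes were unequal in how far they moved. The distance from the lowest to the highest array was 2.04 for PTS, 1.42 for DDC and 1.14 for ALDH1A1, and 3.36%, 9.12% and 15.8% of all genes moved at least that far. It was 0.72 for MAOA, 0.51 for TH, 0.26 for SLC18A2 and 0.24 for MAOB. Of all genes, 56.4% moved as far as TH and 86.5% as far as MAOB.

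On sign alone, 4 of the 9 genes (TH, GCH1, SLC18A2 and ALDH1A1) were above 0 on all 4 arrays, against 23.5% of all genes. GCH1 at every time and SLC18A2 at 2 h were so close to 0 that their sign carries no weight. With exact zeros taken as not measured, which shifts the centre of each array, the count was 2. PTS was the 1 gene below 0 on all 4 arrays, against 18.1% of all genes, and without the 1 day array MAOA joined it, which makes 2. The arrays share the vehicle sample, so the same sign on all 4 is not 4 separate observations.

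No other gene of the tetrahydrobiopterin pathway passed 2-fold, against 1.67% to 7.22% of all genes per array and direction. Of 6 listed genes 5 were measured, and 1 of them, PCBD2, lay below 0 on every array as PTS did. PCBD2 lay at −0.92 ± 0.23 (SD, 2 features), −0.50 ± 0.24, −0.27 ± 0.087 and −0.48 ± 0.085. It was picked out after its values were seen. SPR, sepiapterin reductase, which acts after PTS in the same synthesis, lay at 0.73, 0.98, 0.48 and 0.91 from 2 h to 14 days, above 0 throughout while PTS lay below. QDPR, the reductase that regenerates the cofactor after each round of hydroxylation, lay at −0.64, 0.46, 0.25 and 0.26. Its change of sign between 2 h and 6 h came at the same step as that of DDC. PCBD1, the dehydratase of the same recycling route, lay at 0.079, −0.084, −0.15 and −0.44.

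Among 7 listed genes of amine and aldehyde breakdown, 4 were measured. Of these 0 were 2-fold from vehicle, against 1.67% to 7.22% of all genes per array and direction. ALDH2, the mitochondrial aldehyde dehydrogenase that shares its substrate with ALDH1A1, was not high where ALDH1A1 was. It lay at −0.46 ± 0.13 (SD, 2 features), −0.33 ± 0.19, −0.11 ± 0.14 and 0.10 ± 0.20. ALDH1B1 lay above 0 on every array as ALDH1A1 did, at 0.52 ± 0.23 (SD, 2 features), 0.39 ± 0.082, 0.15 ± 0.17 and 0.25 ± 0.10. ALDH9A1 lay below 0 throughout, at −0.012, −0.40, −0.55 and −0.26 (1 feature). ALDH7A1 lay at −0.14 ± 0.72 (SD, 3 features), −0.12 ± 0.52, 0.11 ± 0.42 and 0.60 ± 0.43. Of 7 listed transporters of other amines and of MPP+, 5 were measured and 0 were 2-fold from vehicle, against the same shares. Their values ran from −0.21 to 0.29. SLC22A3 is not analysed here.

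Enzymes of other amines gave the larger values of the wider pathway. Of 6 listed genes 5 were measured. From 2 h to 14 days, 1, 1, 2 and 2 of them were at least 2-fold higher, against 5.47%, 3.37%, 2.27% and 2.16% of all genes. At least 2-fold lower were 0, 0, 1 and 0, against 7.22%, 3.89%, 1.67% and 2.12%. PNMT, which makes adrenaline, lay at 1.08, 1.36, 1.20 and 3.99. HDC, which makes histamine, lay at 0.47, 0.22, 2.26 and 1.53. TPH1, a tryptophan hydroxylase, lay at 0.77, 0.075, −1.07 and −0.50. PNMT, HDC and TPH1 each rest on 1 feature. DBH, also with 1 feature, lay near the vehicle level, at 0.056, 0.079, 0.020 and 0.047. TPH2 lay at 0.031 ± 0.14 (SD, 2 features), 0.017 ± 0.20, 0.53 ± 1.03 and 0.62 ± 0.65. Over all 19 measured genes of the 4 lists the median was 0.079, 0.017, 0.079 and 0.073.

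**Figure D3:**
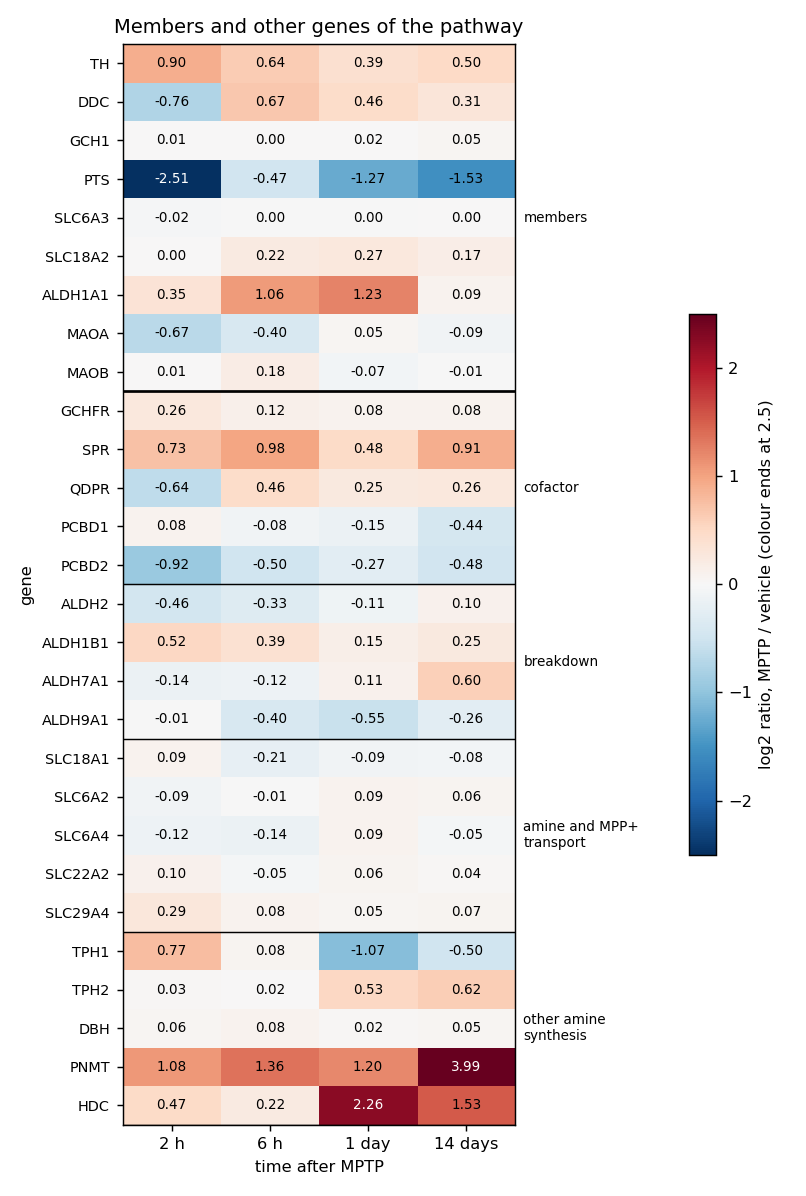
Log2 ratio of MPTP over vehicle (colour and printed value) at each time (columns) for the 9 genes and the 19 other measured genes of the pathway (rows, in the 4 lists named at the right). Blue is lower and red higher than vehicle, and SLC6A3 is a feature listed at 0. PTS is the lowest gene, at −2.51, and SPR in the same pathway reaches 0.98.

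PTS, ALDH1A1 and TH were set beside their neighbours in the genome, and no link between a gene and its neighbours was tested. Of the 10 neighbours of PTS, 5, 5, 5 and 3 lay below 0 from 2 h to 14 days. Among the 5 measured genes on each side of PTS in the marmoset gene order, 1 was at least 2-fold lower on all 4 arrays. This was TTC12, a dynein arm assembly factor 2 genes away. Of all genes, 0.777% were at least 2-fold lower on 3 or more arrays. It lay at −3.24 ± 0.24 (SD, 2 features), −2.68 ± 0.36, −2.47 ± 0.46 and −2.79 ± 0.73. NCAM1, a cell adhesion molecule that lies between the pair, was at 0.61, 0.0093, 0.50 and 0.35. The median over the 10 neighbours was 0.10, −0.028, 0.056 and 0.15. Of the 10 neighbours of ALDH1A1, 9 lay below 0 at 6 h and 8 at 1 day, with medians of −0.10 and −0.11. ALDH1A1 itself lay at 1.06 and 1.23. The median over all genes was 0.029 at 6 h and 0.015 at 1 day, so under 50% of all genes lay below 0. Of the 10 neighbours of TH, 9 lay above 0 at 6 h, where over 50% of all genes did. Their median was 0.57 at 6 h, beside the 0.64 of TH, and 0.050 at 14 days.

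**Figure D4:**
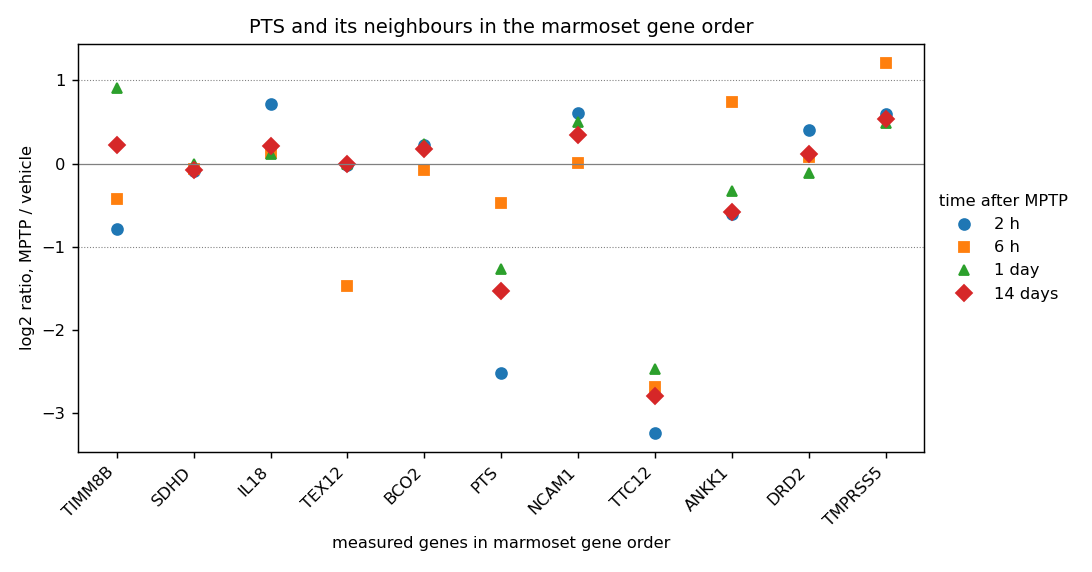
Log2 ratio of MPTP over vehicle (vertical axis) of PTS and of the 5 measured genes on each side of it in the marmoset gene order (horizontal axis, evenly spaced), with 1 symbol per time. PTS and TTC12 lie low, with NCAM1 between them above 0. TEX12 was listed at exactly 0 on 3 arrays.

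The genes nearest to PTS in their course lay farther from it than those nearest to TH lay from TH. Few genes had values as low, 39 of 18014 lying below PTS at 2 h, so its larger distances carry no weight. Among 6188 genes with 2 or more features and no exact zero, the nearest to PTS by Euclidean distance over the 4 arrays were CPEB3, a regulator of translation (distance 0.70), BICRAL (1.06) and the phosphatase CDC14A (1.12). For ALDH1A1 the nearest named genes were the ribonuclease RNASET2 (0.54) and MEGF6 (0.55). For TH they were GHDC (0.11), the glutamate transporter SLC1A7 (0.15) and PKD1, polycystin 1 (0.16). All these distances are over 4 arrays that share 1 sample, and PTS and ALDH1A1 had 1 feature each, unlike the genes searched.

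Markers of the cells that could be in the strip went both ways. All 14 listed markers of dopamine neurons had a value, with medians of 0.23, 0.10, 0.20 and 0.11. From 2 h to 14 days, 2, 0, 1 and 0 of them were at least 2-fold higher, against 5.47%, 3.37%, 2.27% and 2.16% of all genes. None of the 14 was 2-fold lower on any array, against 7.22%, 3.89%, 1.67% and 2.12%. Below 0 lay 5 of them after 2 h, 3 after 6 h, 6 after 1 day and 3 after 14 days. KCNJ6, a potassium channel subunit of these neurons, lay at −0.19, 0.80, 1.01 and 0.99, below 0 at 2 h and above it later as DDC was. NR4A2 (−0.32, 0.24, 0.21 and 0.062) and SLC10A4 (−0.32, 0.24, 0.70 and 0.23) had the same signs as KCNJ6. The transcription factors EN1 (0.33 at 2 h and −0.32 at 1 day) and PITX3 (0.31 and −0.047) and the dopamine receptor DRD2 (0.41 and −0.11) had the opposite signs at these times, and LMX1B was at 1.76 and −0.20. SNCG, gamma-synuclein, lay at 1.06, 0.88, 0.37 and 0.87, and RET, a receptor of growth factors, at −0.14, −0.077, −0.48 and −0.89. FOXA1, a transcription factor with 11 features, lay at −0.78 at 2 h and 0.35 at 1 day.

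The 5 measured markers of GABA neurons had medians of −0.26, −0.82, −0.63 and −0.78, below 0 on every array as PTS was. GAD2, which makes GABA, was the lowest at 2 h, at −2.18, and lay at −1.30, −0.96 and −1.83 later. At 2 h, where PTS was lowest, 2 of the 5 lay above 0, PVALB at 0.35 and SST at 0.34. At 1 day GAD1 did, at 0.096 ± 1.11 (SD, 3 features). The 8 astrocyte markers had medians of −0.48, −0.29, −0.021 and 0.081 and ranged from −1.60 to 0.18 at 2 h, the time at which MAOA was lowest too. The 8 markers of endothelium and pericytes had medians of 0.22, 0.35, 0.43 and 0.42, with 5, 6, 5 and 6 members above 0. These medians were above 0 on every array as TH and ALDH1A1 were, and so were those of dopamine, serotonin and noradrenaline neuron markers. Medians were 0.49, −0.11, 0.33 and 0.37 over 7 erythrocyte markers and −0.031, 0.13, −0.16 and 0.20 over 8 microglial markers. At 2 h the globins HBA1 and HBB were at 2.66 and 0.49, and EPB42, the 1 erythrocyte marker below 0, at −0.41. Of the microglial markers 4 lay above 0 and 4 below at 2 h, from the adaptor TYROBP at 2.01 to C1QA at −0.66. For 8 general neuronal markers the medians were 0.12, −0.0016, 0.048 and −0.32, and for 6 oligodendrocyte markers 0.15, 0.25, −0.0092 and 0.097. The 4 serotonin neuron markers had medians of 0.18, 0.082, 0.11 and 0.14, and the 3 measured noradrenaline neuron markers 0.056, 0.079, 0.087 and 0.061. The part of these cells in the values of the 9 genes was not tested. As ratios, the markers do not show whether a cell type was present.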

How the data were processed

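The study's processed table held 1 value per array feature and sample for 43931 features of a human whole-genome oligonucleotide array hybridised with marmoset RNA. Per the labels, 2 rounds of amplification preceded labelling, with Cy5 for the MPTP animals, Cy3 for the vehicle animal and no dye swap named. The deposited values were read as log10 ratios of Cy5 over Cy3: their medians per array ran from 0 to 0.0063, the largest size was 2 on each array, and 4.70% to 7.38% were exact zeros. The authors' software, background correction and normalization were not given in the sources used here, and without intensities no filter on dim features was possible.

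Values were converted to log2, each array was centred on its median, and features of 1 gene were summarised by their median, with pandas 2.3.3. Symbols came from the platform annotation, and 66.1% of features had 1. All 9 genes occur in the marmoset RefSeq table (assembly calJac240_pri), used only for gene order. The gene values were checked on shuffled data with a known shift added to some genes. This tests the arithmetic and not the sign, scale or annotation. Precision is limited by the number of arrays, 1 per time.

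The 9 genes and all lists were chosen with earlier results of these data known. The text names all 9, listed pathway genes at least 2-fold from vehicle on any array, a few fixed ones (SPR, QDPR, PCBD1, ALDH2, SLC22A3), and the 3 genes nearest to TH, PTS and ALDH1A1, without clone names. PCBD2, DBH, TPH2, ALDH1B1, ALDH7A1 and ALDH9A1 were added after their values were seen. Marker genes, neighbours of PTS and the counts over all 4 arrays were chosen after values were seen. Alternatives were no centring, the mean over features, exact zeros as not measured, arrays scaled to 1 spread, other thresholds and the turned sign.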

Additional observations from a re-analysis of the deposited data

Results flagged for a closer look

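DDC stood on opposite sides of the vehicle level at different times, with 0.67 at 6 h and −0.76 at 2 h, a difference of 1.42 on the log2 scale. Among the pathway genes, QDPR did the same between the same times, with a difference of 1.10, and TPH1 lay 1.84 higher at 2 h than at 1 day. Among the dopamine neuron markers, KCNJ6 lay 1.20 higher at 1 day than at 2 h, LMX1B lay 1.96 higher at 2 h than at 1 day, and FOXA1 lay 1.13 higher at 1 day than at 2 h. Of the GABA neuron markers, SST lay 1.39 higher at 2 h than at 6 h. Each of these genes had 1 feature, except FOXA1 with 11, and 1 animal per time, and none of the differences was tested.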

How the results depend on the processing

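No paired analysis was possible because each time had 1 array and no result comes from a test. Without centring, every value of the 9 genes and every count kept its side of the threshold, and no value moved by as much as the median SD between features of a gene. The mean over features equals the median for genes with 1 or 2 features and tests nothing here. The medians without PTS moved by less than that SD too. With arrays scaled to 1 spread, PTS lay at −1.78, −1.70 and −1.89 at 2 h, 1 day and 14 days, so that 2 h was no longer the lowest time, ALDH1A1 lay at 1.65 at 1 day, the steps of PTS from 2 h to 6 h and from 6 h to 1 day were 1.31 and −1.23, the latter now past 2-fold, and those of ALDH1A1 from 6 h to 1 day and on to 14 days were 0.61 and −1.54. At a 1.5-fold threshold, 1 gene was higher and 3 lower at 2 h, and 3 were higher at 6 h. At a 3-fold threshold, 0 were higher at 6 h and 1 day and 0 lower at 1 day and 14 days, which leaves PTS at 2 h. With exact zeros as not measured, 2 genes were above 0 on all 4 arrays, and without the 1 day array 2 were below.

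With every sign turned, PTS would lie at 2.51, 1.27 and 1.53 at 2 h, 1 day and 14 days and ALDH1A1 at −1.06 and −1.23 at 6 h and 1 day. The count higher would be 1 and the count lower 0 at 2 h and 14 days, 0 higher and 1 lower at 6 h, with 1 gene above and 4 below 0 on all arrays and a median of −0.18 at 6 h. The cause of these changes lies in the construction of each alternative. What signal over background limits is unknown without intensities.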
